A study of Mus musculus with 22 samples.

Results

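Hearts taken at E9.5, the youngest age in the series, were compared between Nkx2.5::Cre Ronin knockouts and their controls. The 4 arrays were chosen by their titles (2 controls and 2 knockouts, of 22 samples in all), and the probes described are those that name 1 gene and were brighter than the median probe on these arrays (an intensity of 59.6). Of 45281 probes, 18987 met that rule, and they belong to 11774 genes. A gene was tested through its brightest probe over all arrays, which left 11713 genes. The Ronin gene is Thap11. Controls were Nkx2.5::Cre, RoninloxP/+ and knockouts Nkx2.5::Cre, RoninloxP/loxP, all on C57BL/6, so both groups carried Cre and the controls had already lost 1 Ronin allele wherever Cre was active. Each sample was a pool of 10 hearts. Nkx2.5::Cre acts in cardiac progenitors, so blood and other tissue outside that lineage can keep its Ronin alleles. The comparison addresses which transcripts differ first, at an age before these hearts fail. Nothing in the labels says that the pools came from separate litters. The p values rest on a spread within groups that was estimated for each gene over all 22 arrays, not on these 4 pools alone.

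Ronin is a zinc finger protein of the THAP family that binds a conserved sequence close to transcription start sites and recruits Hcf-1, a large cofactor that brings chromatin enzymes to promoters. Its known target genes serve basic cell functions such as mitochondrial translation, respiration and RNA metabolism. The embryonic heart at this age is a looped tube of myocardium lined by endocardium, with the epicardium about to spread over it from the proepicardium beside the liver bud.

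Few genes differed between the groups, and most of those that fell had a Ronin binding sequence in the promoter. In limma, with Benjamini-Hochberg adjustment over all 11713 genes and a threshold of 0.05, 38 genes were lower in the knockouts (0.324%) and 22 were higher (0.188%). A plain-letter form of the binding sequence, ACTACANNNCCC (its reverse strand is GGGNNNTGTAGT), was found in the promoters of 24 of the 34 lower genes that the RefSeq promoter table lists (70.6%), of 7 of 19 higher genes (36.8%) and of 475 of all 9448 tested genes listed (5.03%). The sequences below are the sites of the 11 genes that hold the motif among the 16 largest decreases. They are read 5′ to 3′ on the strand of the gene from RefSeq promoters (GRCm38.p6), with the 12 bases of the motif in capitals.
Bckdk, chr7:127904020-127904049, plus strand: tgtggtcaaACTACAACTCCCaggaggcac
Pomgnt2, chr9:121996082-121996111, minus strand: cgcttgaaaACTACAATTCCCaggattctg
Tmub1, chr5:24447864-24447893, minus strand: acagggcgaACTACAATCCCCacaatgctc
Thtpa, chr14:55094745-55094774, plus strand: cctttggaaACTACATCTCCCatcatgcac
Iqgap3, chr3:88081932-88081961, plus strand: ctaagaggaACTACAAAACCCagggttccc
Mrpl24, chr3:87919398-87919427, plus strand: tctctgtgaACTACAACTCCCagtggtctc
Ccdc163, chr4:116708389-116708418, plus strand: cagggctggACTACATTTCCCaagaagtaa
Mtrf1, chr14:79397732-79397761, plus strand: gaagggtaaACTACAACTCCCaggattcct
Apba3, chr10:81268148-81268177, plus strand: gactcgaggACTACATTTCCCagcaggccg
Setmar, chr6:108064971-108065000, plus strand: ggacggaaaACTACAACTCCCatgaggaag
Bola1, chr3:96197691-96197720, minus strand: gaagcagggACTACAATTCCCataaaacct
All 11 sites read toward the gene, and they start between 15 and 197 bases before the transcription start.

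The promoter of Mrpl34, a protein of the large mitochondrial ribosomal subunit, held 3 sites, the most of any gene past the threshold. It is shown whole because the sites repeat within 300 bases, again with each motif in capitals.
Mrpl34, chr8:71464676-71464975, plus strand: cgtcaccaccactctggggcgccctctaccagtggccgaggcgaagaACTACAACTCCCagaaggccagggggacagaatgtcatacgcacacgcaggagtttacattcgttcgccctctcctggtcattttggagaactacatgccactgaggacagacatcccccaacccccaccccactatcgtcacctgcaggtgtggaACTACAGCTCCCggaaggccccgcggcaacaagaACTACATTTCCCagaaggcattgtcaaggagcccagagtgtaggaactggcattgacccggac
Its sites start 203, 47 and 13 bases before the transcription start. Rabac1, Letm1, Uqcr10 and Thyn1 among the lower genes and Grk4 and Tmem43 among the higher genes held 2 sites each.

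Genes that rose carried sites of the same form. The sites of 6 of the 7 higher genes with the motif are shown for comparison with those of the genes that fell, with both sites of Grk4.
Gm5113, chr7:30169851-30169880, plus strand: cgactttggACTACACTTCCCacaaggcac
Grk4 site 141 bases before the start, chr5:34660229-34660258, plus strand: ggattaaagACTACAACTCCCaggaggcca
Grk4 site 88 bases before the start, chr5:34660282-34660311, plus strand: gggccttatGGGATCTGTAGTgtcccgaga
Smim11, chr16:92301256-92301285, plus strand: gtgcatttcGGGACTTGTAGTtttcacgac
Chchd6, chr6:89595685-89595714, minus strand: gaatgctggACTACAAATCCCacagggcaa
Ero1b, chr13:12565795-12565824, plus strand: gctacagggACTACAACTCCCagaaggctt
Sgsm3, chr15:80977725-80977754, plus strand: tcccgcgaaACTACAGCCCCCagcatgccc
The seventh was Tmem43, which encodes a protein of the inner nuclear membrane. Its promoter is given whole, with sites 123 and 35 bases before the start.
Tmem43, chr6:91473457-91473756, plus strand: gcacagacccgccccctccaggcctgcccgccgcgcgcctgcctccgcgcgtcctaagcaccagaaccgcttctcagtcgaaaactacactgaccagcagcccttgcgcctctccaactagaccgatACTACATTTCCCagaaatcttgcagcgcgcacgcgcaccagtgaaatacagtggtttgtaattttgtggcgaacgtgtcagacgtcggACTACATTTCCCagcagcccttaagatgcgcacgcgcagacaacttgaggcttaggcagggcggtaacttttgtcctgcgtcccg
A match of letters is a description of the window and not a measurement of binding.

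The array medians of the 4 pools lay between 59.98 and 60.03. These values had already been normalized by the authors, so equal medians say nothing about the quality of the arrays. Over the 11713 tested probes the 2 controls differed by an SD of 0.188 on the log2 scale and the 2 knockouts by 0.237. Between the groups the SD was 0.186 and 0.192 for pools of the same number and 0.225 and 0.230 for pools of unlike number. No array stood apart by this measure. Working heart genes were bright in every pool, with a summed intensity of 25 sarcomere genes above the median probe between 372600 and 442100. Blood was present throughout, since the summed intensity of 15 erythroid markers lay between 193400 and 197100. In whole hearts, fewer cells of a type and less RNA per cell cannot be told apart.

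Thap11, the targeted gene, had intensities of 3658 and 3555 in the controls and of 3116 and 1940 in the knockouts. Both knockouts lay below both controls, at 86.4% and 53.8% of the control mean. The log2 fold change was -0.55 ± 0.22 (SE), with an adjusted p of 0.762 in limma, and the exact two-sided permutation p was 0.333, the smallest that 2 against 2 samples allow. The sources used here do not say if this probe lies within the sequence that Cre removes. Hcfc1, which encodes Hcf-1, had intensities of 2544 and 2035 in controls and 2129 and 2142 in knockouts, and its log2 fold change was -0.09 ± 0.13.

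The log2 fold changes of the lower genes ran from -0.46 to -1.27 with a median of -0.73, and those of the higher genes from 0.45 to 1.57 with a median of 0.68. Over 1.5-fold there were 49 lower genes (0.418%) and 27 higher genes (0.231%), and over 2-fold 5 lower genes and 1 higher gene, whether or not they passed the test. The knockout and control pools did not overlap in any of the 60 genes called (over all genes, both knockouts lay below the controls in 13.8% and above them in 15.9%), which follows from calling them on these arrays. As a description, the median of the lower genes was -0.67 in knockout pool 1 and -0.80 in pool 2, and that of the higher genes was 0.66 and 0.68. These counts rest on the precision that the array weights give to the E9.5 pools. With equal weights 1 gene was called lower (Tmub1) and 1 higher (Ttc41), and without control pool 2 none was called lower and Ttc41 alone higher (of 260 higher and 308 lower genes at an unadjusted p under 0.05 with all pools).

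**Figure D1:**
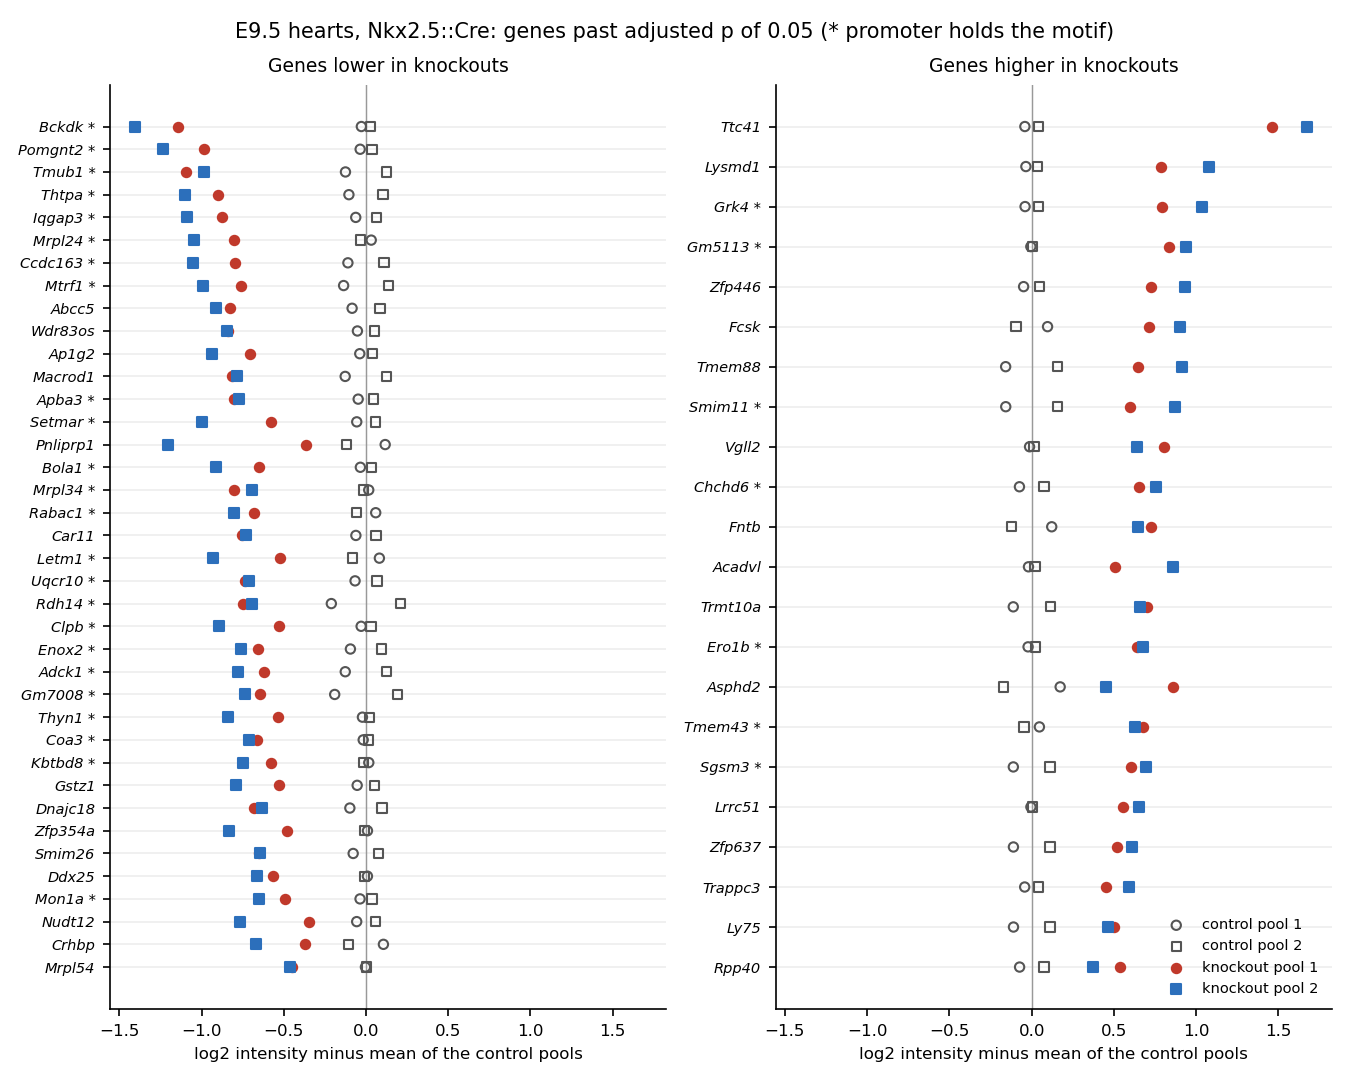
Log2 intensity of each pool minus the mean of the control pools (horizontal axis) for the 38 lower genes (left) and the 22 higher genes (right), with open symbols for controls, filled symbols for knockouts and an asterisk where the promoter holds the motif. In every row both knockout pools lie on the same side of both control pools.

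The deepest decrease was that of Bckdk, the kinase that switches off the enzyme complex for breakdown of branched-chain amino acids. It read 2218 and 2307 in the control pools against 1024 and 856 in the knockout pools, a log2 fold change of -1.27 ± 0.16 (adjusted p = 0.000535). A second Bckdk probe gave -1.09. Of 21 genes of branched-chain amino acid breakdown, Bckdk alone passed, and the median of the list was 0.04 (0.01 over all genes tested). Acad8, the dehydrogenase of the valine branch, had a log2 fold change of -0.51 ± 0.19 with an adjusted p of 0.590.

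Pomgnt2, which extends the O-linked mannose of alpha-dystroglycan in the endoplasmic reticulum, had intensities of 491 and 515 in controls and 254 and 214 in knockouts, and its log2 fold change was -1.11 ± 0.15 (adjusted p = 0.00114). Its 2 other probes were lower as well, by -1.10 and -0.62. It was the only 1 of 13 genes of that glycosylation route to pass. Pomt2, an enzyme that adds the first mannose, had -0.49 ± 0.12 (adjusted p = 0.117) and Dpm3, a subunit of the mannose donor synthase, -0.40 ± 0.14 (adjusted p = 0.503), with knockouts below controls in each.

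Several of the genes that fell encode parts of the mitochondrial translation machinery. Mrpl24 read 1466 and 1403 in controls and 821 and 695 in knockouts (log2 fold change -0.93 ± 0.13, adjusted p = 0.00171). Mrpl34 read 4551 and 4448 against 2578 and 2781 (-0.75 ± 0.13, adjusted p = 0.00917), and Mrpl54 read 5936 and 5965 against 4350 and 4317 (-0.46 ± 0.09, adjusted p = 0.0210). Each is a single protein of the large subunit. The other 43 of the 46 large subunit genes and all 27 small subunit genes did not pass, and the list medians were 0.01 and -0.03. Mtrf1, a factor that releases finished chains from the mitochondrial ribosome, was the only 1 of 27 translation factors to pass. It read 307 and 370 in controls and 199 and 169 in knockouts (-0.88 ± 0.14, adjusted p = 0.00393). Its other probes, which were dimmer, gave -0.42 and -0.19.

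In the respiratory chain, Uqcr10, a small subunit of complex III, was by far the brightest gene that fell, with 25367 and 27817 in controls and 15976 and 16235 in knockouts. Its log2 fold change was -0.72 ± 0.09 (adjusted p = 0.000535), and a second probe gave the same value of -0.72. Uqcr10 was 1 of 17 genes of complexes II and III. None of 41 complex I genes (1 lower and 0 higher at an unadjusted p under 0.05) and none of 36 genes of cytochrome oxidase and ATP synthase (0 and 0) passed in limma, and both medians were -0.00. Coa3, which helps to assemble cytochrome oxidase and is named here after its values were seen, read 7006 and 7173 against 4472 and 4329 (-0.69 ± 0.08, adjusted p = 0.000535).

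Of 40 genes of mitochondrial import and the inner membrane, 1 fell (Letm1) and 1 rose (Chchd6), and of 16 genes of thiamine and other vitamin cofactors, 1 fell (Thtpa). Letm1, an inner membrane protein of cation exchange, read 797 and 712 in controls and 525 and 396 in knockouts (-0.72 ± 0.13, adjusted p = 0.00845), while a second, dim probe was at 0.02. Adck1, a kinase-like protein of mitochondria, read 331 and 394 against 235 and 211 (-0.70 ± 0.12, adjusted p = 0.00686). Bola1, which takes part in handling of iron-sulfur clusters, read 430 and 451 against 281 and 234 (-0.78 ± 0.17, adjusted p = 0.0396). The knockout pools were apart from the controls in each of these, and pool 2 was the lower of the knockouts, as it was for 29 of the 38 genes that fell. Of the 22 genes that rose, 15 were further above the controls in pool 2 than in pool 1. The share over all genes is not given here. Thtpa, which hydrolyses thiamine triphosphate, read 947 and 1093 in controls and 544 and 475 in knockouts, and its log2 fold change was -1.0 ± 0.13 (adjusted p = 0.000535). Macrod1, a hydrolase of ADP-ribose marks, had -0.80 ± 0.17, and Gstz1, an enzyme of tyrosine breakdown, had -0.66 ± 0.14.

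Among the lower genes that belong to no function list, Rabac1, an acceptor of prenylated Rab proteins at the Golgi, read 2416 and 2226 against 1449 and 1329 (-0.74 ± 0.14, adjusted p = 0.0134). Ap1g2, a gamma subunit of the AP-1 clathrin adaptor, had -0.82 ± 0.17 (adjusted p = 0.0302), although a second, dim probe was at 0.16. Its annotated span overlaps that of Thtpa by 161 bases on chromosome 14. Mon1a, part of the exchange factor for Rab7, had -0.57 ± 0.10, with a second, dim probe at -0.28. Wdr83os, which helps membrane proteins to fold in the endoplasmic reticulum, had -0.84 ± 0.18 and Abcc5, an exporter of organic anions and cyclic nucleotides, had -0.87 ± 0.13. Apba3, a cytoplasmic adaptor protein, read 1163 and 1242 against 689 and 705 (-0.79 ± 0.15), and its gene lies 8 bases from Mrpl54 on chromosome 10.

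The remaining decreases included Tmub1, a ubiquitin-like membrane protein, with 425 and 505 in controls and 217 and 234 in knockouts. It had the lowest adjusted p of the genes that fell (log2 fold change -1.04 ± 0.12, adjusted p = 0.000233). Iqgap3, a scaffold of the cytoskeleton, had -0.98 ± 0.16, with a second, dimmer probe at -0.46. Ccdc163 had -0.92 ± 0.14 and Setmar, a SET domain methyltransferase, had -0.79 ± 0.15. Thyn1, a nuclear protein, read 3994 and 4116 in controls and 2796 and 2265 in knockouts (-0.69 ± 0.12, adjusted p = 0.00803). Pnliprp1, a lipase relative of the pancreas, was the least even of the group, with 195 and 166 in controls and 139 and 78.0 in knockouts (-0.78 ± 0.17, adjusted p = 0.0461).

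Among the genes that rose, Ttc41, which encodes a protein of tetratricopeptide repeats, changed most. It read 96.9 and 103 in controls and 274 and 318 in knockouts, a log2 fold change of 1.57 ± 0.13 (adjusted p = 2.3e-06). Its 2 other probes rose as well, by 0.81 and 0.62. It was the only gene whose call held with each of the 4 pools left out in turn, among the 47 called genes that were followed that way.

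Lysmd1, of the LysM domain family, read 595 and 625 against 1050 and 1284 (0.93 ± 0.16, adjusted p = 0.00748). Grk4, a kinase of G protein-coupled receptors, read 75.7 and 80.1 against 135 and 160 (0.91 ± 0.12, adjusted p = 0.000931). Gm5113 read 181 and 183 against 324 and 349 (0.89 ± 0.14), and the zinc finger gene Zfp446 read 220 and 236 against 377 and 435 (0.83 ± 0.14). In each of them the higher control was well below the lower knockout.

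Tmem88, a membrane protein that restrains Wnt signalling during heart formation, was the brightest gene that rose, with 3860 and 4808 in controls and 6745 and 8126 in knockouts (0.78 ± 0.14, adjusted p = 0.0109), although a second, dim probe was at 0.09. Vgll2, a partner of TEAD factors known from skeletal muscle, read 183 and 186 against 322 and 287 (0.72 ± 0.11). Its other probes gave 0.79 and, for a dim one, 0.24. Fntb, the beta subunit of the farnesyltransferase, read 4465 and 3772 against 6793 and 6412 (0.69 ± 0.11). Fcsk, a kinase that salvages fucose, had 0.81 ± 0.16, with a second probe at 0.33, and Smim11 had 0.74 ± 0.16.

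Chchd6, a subunit of the complex that shapes mitochondrial cristae, read 543 and 603 against 898 and 965 (0.70 ± 0.14, adjusted p = 0.0192). Acadvl, the first enzyme of very long-chain fatty acid oxidation, read 953 and 979 against 1373 and 1750 (0.68 ± 0.13, adjusted p = 0.0165). It was the only 1 of 22 fatty acid oxidation genes to pass, and the median of the list was 0.06. Ero1b, an oxidase for disulfide bonds in the endoplasmic reticulum, had 0.66 ± 0.12 and Tmem43 had 0.65 ± 0.09. Rpp40, a subunit of ribonuclease P, was the smallest increase called, at 0.45 ± 0.08.

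By size of change, the share of promoters with the motif was highest at both ends. It was 52.3% for genes with a log2 fold change below -0.5 (34 of 65), 29.2% from -0.5 to -0.3, 5.72% from -0.3 to -0.1, 2.91% from -0.1 to 0.1, 6.09% from 0.1 to 0.3, 18.8% from 0.3 to 0.5 and 32.5% above 0.5 (13 of 40). Most genes with the motif moved little: of 475, 117 were below -0.2 and 73 above 0.2, against 709 and 657 of the 11713 genes tested, and their median was -0.01. Of those 475 genes, 24 were called lower and 7 higher, which is 5.05% and 1.47%. The share among the 38 lower genes of lowest p was 72.7% with equal array weights, and it fell to 41.9% without knockout pool 1 (61.8% without pool 2).

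**Figure D2:**
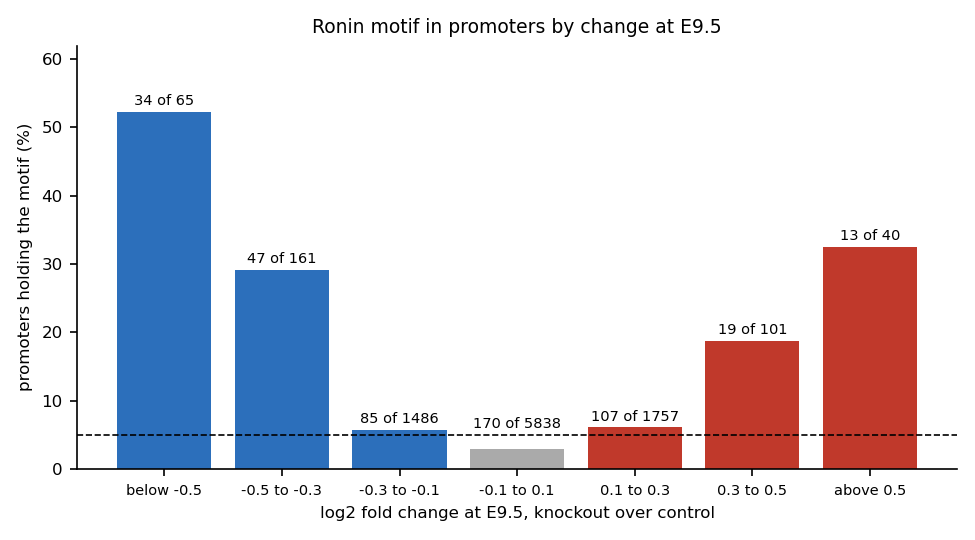
Percent of RefSeq promoters that hold the motif (vertical axis) in bins of the log2 fold change at E9.5 (horizontal axis), with the numbers of genes above each bar and a dashed line at the 5.03% of all tested genes with a listed promoter. The lowest share is 2.91%, in the bin around 0, and the shares rise toward both ends, to 52.3% and 32.5%.

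The 24 lower genes held 30 sites, which started from 231 bases before to 32 bases after the transcription start. Of these, 24 were on the strand of the gene, so that ACTACA comes before CCC in the direction of transcription, as were 7 of 9 sites of higher genes and 361 of all 561 sites of tested genes. Sites lay within 150 bases of the start in 26 of the 30 cases for lower genes and in 9 of 9 for higher genes. Over all tested genes with the motif, those whose nearest site lay from 25 bases before to 38 after the start had 15 members below -0.2 and 21 above 0.2 (median 0.06). With the nearest site 26 to 50 bases before the start the numbers were 28 and 15, and with 51 to 100 bases 48 and 22. In the next bin, which ends 150 bases before the start, they were 17 and 6. Among the 62 genes with the nearest site more than 150 bases before the start, they were 9 and 9 (median 0.01). The difference between these positions was not tested.

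**Figure D3:**
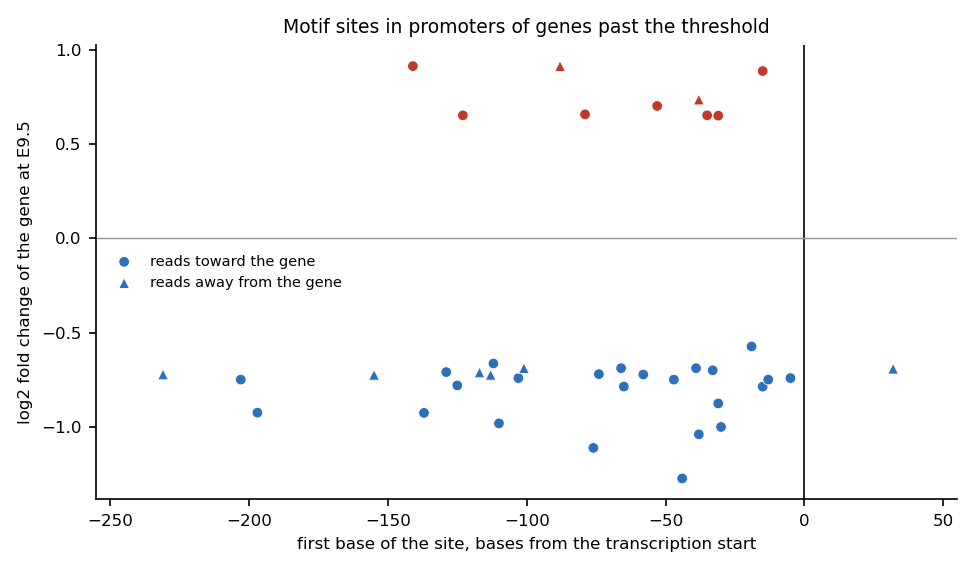
Position of each motif site from the transcription start in bases (horizontal axis) against the log2 fold change of its gene at E9.5 (vertical axis), for genes past the threshold, in blue where they fell and red where they rose, with circles for sites that read toward the gene and triangles for the opposite strand. Within 150 bases of the start lie 26 of the 30 sites of lower genes and all 9 of higher genes.

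The study mapped Ronin and Hcf-1 binding by chromatin immunoprecipitation in E11.5 hearts, and its gene lists were set beside the E9.5 arrays. Of 259 tested genes bound by both proteins, 7 fell (2.70%) and 7 rose (2.70%), against 0.324% and 0.188% of all genes tested, and their median was 0.00. The lower genes were Adck1, Apba3, Mrpl34, Mrpl54, Rabac1, Thyn1 and Zfp354a, and the higher ones Chchd6, Ero1b, Gm5113, Grk4, Smim11, Tmem43 and Tmem88. The motif was in the promoters of 5 of the 5 lower and 6 of the 6 higher genes that the table lists, and of 125 of 211 bound genes overall (59.2%). Of 733 genes bound by Hcf-1 and not Ronin, 16 fell (2.18%) and 6 rose (0.819%), and the motif was in 11 of 15 promoters of those that fell. It was in 1 of 4 listed promoters of those that rose and in 182 of 614 for this bound list overall (29.6%). Of 44 genes bound by Ronin and not Hcf-1, none passed in limma (1 lower and 1 higher at an unadjusted p under 0.05). The other 15 lower genes were in none of these lists, and 8 of their 14 listed promoters held the motif, Iqgap3 and Bola1 among them. The other 9 higher genes, Ttc41 and Lysmd1 among them, were in no list either, and 0 of their 9 listed promoters held it.

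Pathway lists as wholes stayed close to the median of all genes, though some moved further in single pools, as the plot of list medians by pool shows. No gene passed among 31 genes of the amino acid shortage response (median -0.02), 49 of the cell cycle (0.00), 26 targets of p53 and cell death (0.02), 35 of the mTOR pathway (-0.00), 32 aminoacyl-tRNA synthetases (0.00), 56 cytosolic ribosomal proteins (-0.02), 42 proteasome genes (0.01) and 20 of the Notch pathway (-0.03). At an unadjusted p under 0.05 in limma these 8 lists held 3 lower genes and 1 higher gene between them. In the shortage response, Shmt2, the mitochondrial serine hydroxymethyltransferase, read 746 and 758 in controls and 599 and 605 in knockouts, with a log2 fold change of -0.32 ± 0.13 (adjusted p = 0.760). The median of that list was 0.62 in the E11.5 comparison, where 6 of its genes were called higher. Whether the median differs between ages was not tested.

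**Figure D4:**
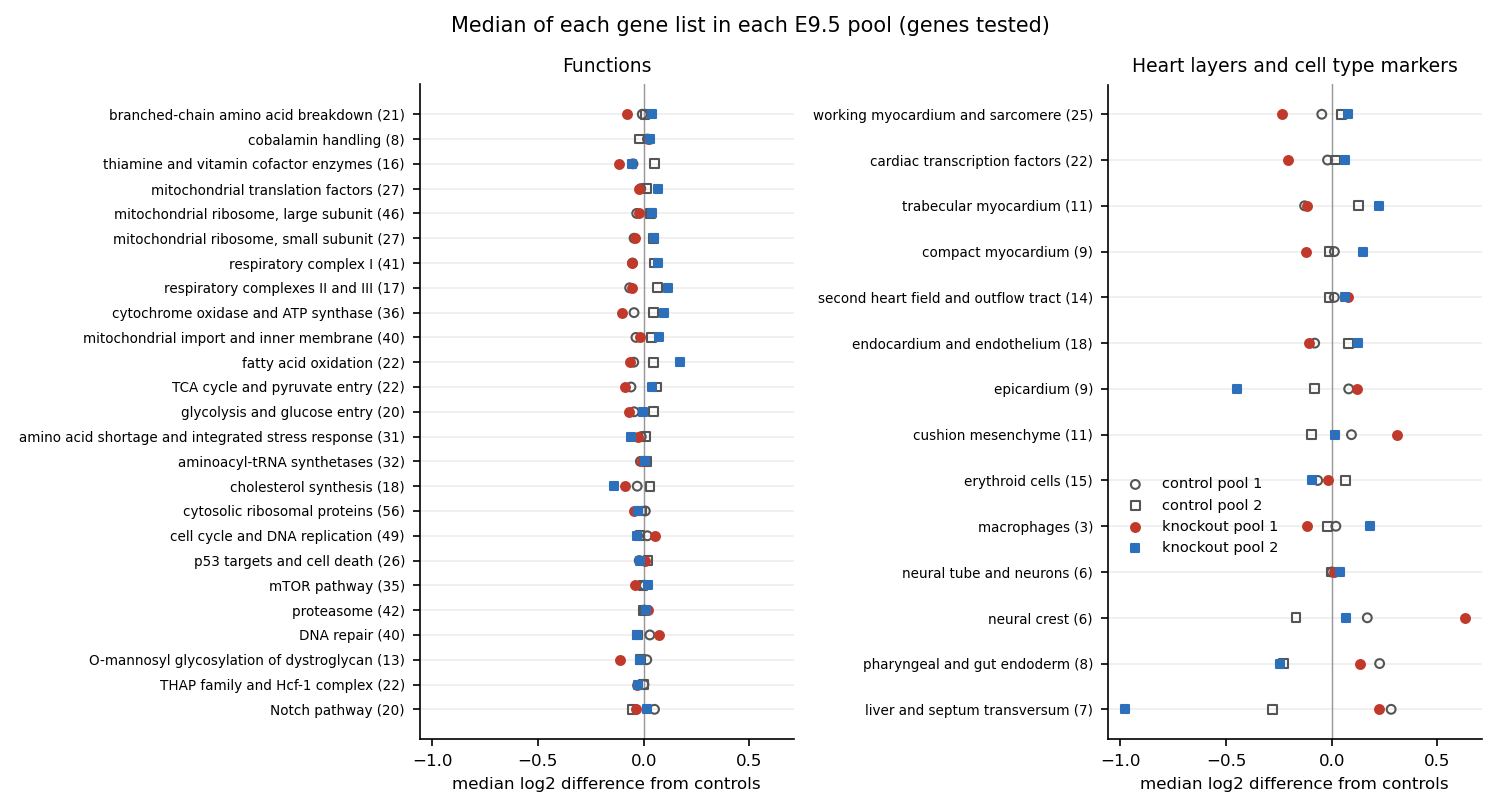
Median over each gene list of the log2 intensity minus the mean of the controls (horizontal axis), for functions (left) and for heart layers and cell type markers (right), with open symbols for control pools, filled symbols for knockout pools and the number of genes tested in brackets. Function lists lie between -0.14 (cholesterol synthesis) and 0.17 (fatty acid oxidation), both in knockout pool 2, where markers of liver and septum transversum reach -0.98.

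Genes of the heart wall gave no call. None of 25 sarcomere genes, 22 cardiac transcription factors, 11 trabecular genes, 9 compact layer genes and 14 genes of the second heart field and outflow tract passed in limma, with 3 lower and 3 higher genes at an unadjusted p under 0.05 in the 5 lists. Their medians were -0.05, -0.07, 0.04, -0.02 and 0.05. Ttn, the giant spring of the sarcomere, read 9330 and 7580 in controls and 4866 and 7289 in knockouts (-0.50 ± 0.17, adjusted p = 0.494), and Myh6, a heavy chain of cardiac myosin, read 24586 and 24832 against 17435 and 22113 (-0.33 ± 0.12, adjusted p = 0.641). The sarcomere median was -0.24 in knockout pool 1 and 0.08 in pool 2. Tbx1 and Fgf8, which mark progenitors of the outflow tract, had log2 fold changes of 0.30 ± 0.14 and 0.28 ± 0.13, and neither passed.

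The pools differed in neighbouring tissue. Over 7 of 10 liver and septum transversum markers above the median probe, the control pools had summed intensities of 4567 and 2809 and the knockout pools of 4565 and 1454, with knockout pool 2 lowest and pool 1 level with control pool 1 (Alb, Fgb and Lhx2 lay at or below the median probe). The epicardial median, over 9 of 12 markers (sums of 11300 and 10120 in controls and 11570 and 9664 in knockouts, with Msln and Sema3d at or below the median probe), was 0.12 in pool 1 and -0.45 in pool 2. The neural crest median, over 6 of 8 markers (sums of 4379 and 4215 against 5206 and 4360, with Foxd3 at or below the median probe), was 0.63 in pool 1 and 0.07 in pool 2. Tfap2a, a neural crest transcription factor, read 198 ± 51.1 in controls and 332 ± 113 in knockouts (mean ± SD, n = 2 each), with a log2 fold change of 0.73 ± 0.17 (adjusted p = 0.0787 in limma). Endoderm markers, 8 of 11, had sums of 9619 and 8125 against 9888 and 7558, with Epcam, Pax1 and Pax9 at or below the median probe, and Shh, a signal of the endoderm, read 493 and 369 against 380 and 163 (adjusted p = 0.251). No marker of these 4 lists passed in limma (4 lower and 3 higher at an unadjusted p under 0.05). Knockout pool 1 was outside the controls in several summed lists. Its sums were above both in neural crest, endoderm and epicardial markers and in cushion markers (10110 against 9157 and 8716). They were below both in sarcomere genes (372600 against 411700 and 432500) and cardiac transcription factors (28260 against 31520 and 33140), among others. Compact layer genes were also below both, at 13230 against 15080 and 14540. Knockout pool 2 was above both controls in those heart lists and below both in endoderm and epicardial markers. The part of these markers in the changes of single genes was not tested. Endothelial markers (18 of 18, sums from 23680 to 26830, median -0.00) and cushion markers (11 of 14, sums from 8716 to 10110, median 0.05) gave no call, and of macrophage markers 3 of 12 were above the median probe.

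Hearts of the same Nkx2.5::Cre cross at E11.5, 3 against 3 on separate arrays, gave a second reading of the 60 genes. The fold changes at both ages come from separate arrays. The calls are not independent, since the same estimate of spread per gene, taken over both ages, entered both. Of the 38 genes that were lower at E9.5, 37 had a log2 fold change below 0 at E11.5, with a median of -0.85, and 22 were called lower there (0.359% of all genes were). With the replicate number as a block (same-numbered samples at E11.5 deviated together), 47 of 49 lower genes and 30 of 34 higher genes kept their direction. Of these, 35 lower and 8 higher genes were called at E11.5. Without the block, the exception among the 38 lower genes was Crhbp, a binding protein of corticotropin-releasing hormone. It had -0.52 ± 0.09 at E9.5 and 0.08 at E11.5, and is named here after its values were seen. All 22 higher genes were above 0 at E11.5, with a median of 0.44, and 2 were called higher, Trappc3, a subunit of a vesicle tether, and Gm5113 (0.102% of all genes were). For comparison, 57.0% of all genes below 0 at E9.5 were below 0 at E11.5, and 48.6% of those above 0 were above 0.

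Among the decreases, Bckdk was at -1.27 ± 0.16 at E9.5 and -1.32 ± 0.21 at E11.5, and Thtpa at -1.0 ± 0.13 and -1.02 ± 0.17. Uqcr10 was at -0.72 ± 0.09 and -1.32 ± 0.12, Thyn1 at -0.69 ± 0.12 and -1.30 ± 0.16, and Pomgnt2 at -1.11 ± 0.15 and -1.57 ± 0.20. None of the 38 lower genes passed the interaction test of a difference between the ages without the block. With the block 35 of all genes passed it, and how many of the 38 are among them is not given here. The motif was in the promoters of 16 of the 19 listed genes that passed as lower at both ages, and of 8 of the 15 that passed at E9.5 and not at E11.5.

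**Figure D5:**
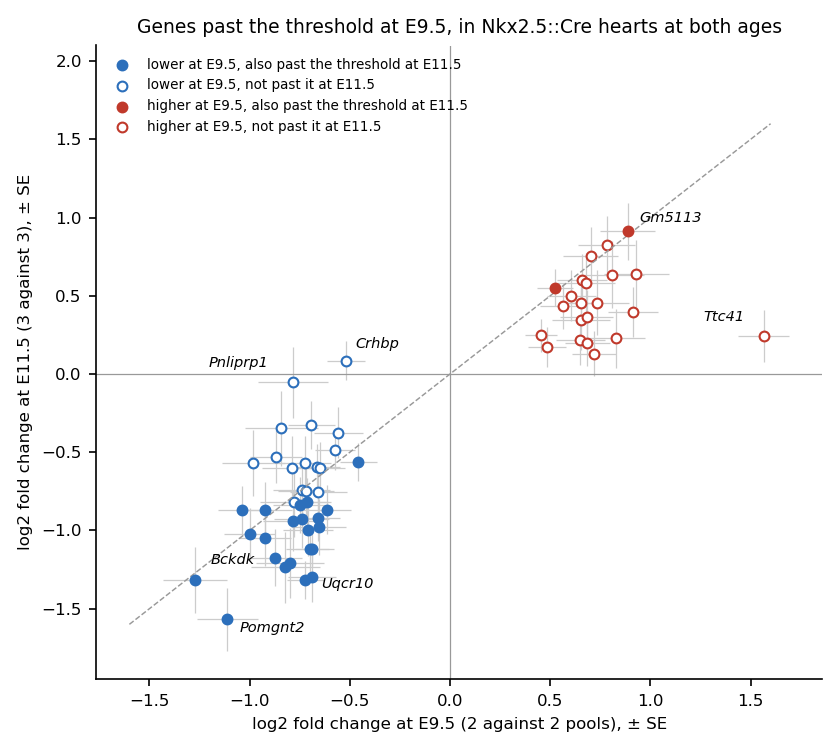
Log2 fold change at E9.5 (horizontal axis) against E11.5 (vertical axis) in Nkx2.5::Cre hearts, with standard errors, for the 60 genes past the threshold at E9.5, filled where they also passed at E11.5. The dashed line marks equal change, 37 of 38 lower genes lie below 0 at E11.5, and Ttc41 lies far below the line with 1.57 at E9.5 and 0.24 at E11.5.

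Over all genes, the change differed between E9.5 and E11.5 for 2 (0.0171%), 1 of which was Ttc41 and the other Slc7a3, a carrier of cationic amino acids, and for 35 with the replicate number as a block. For Slc7a3 the log2 fold change was -0.01 at the earlier age and 3.43 at the later one (adjusted p of the difference 8.2e-05). In the E11.5 samples titled MHC, 2 against 2, whose driver acts later and in myocytes and whose knockouts carry a genotype label of Nkx2.5::Cre against that title, all 38 lower genes were below 0 with a median of -0.23 and 20 of the 22 higher genes were above 0 with a median of 0.14. None of the 60 was called there in limma (at an unadjusted p under 0.05, 18 of the lower and 6 of the higher genes in the same direction). Of all genes below 0 at E9.5, 56.05% were below 0 in these MHC samples, and of those above 0, 51.1% were above 0. At an unadjusted p under 0.05 in limma, 166 of 5597 and 131 of 6116 genes kept their direction.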

How the data were processed

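RNA of whole hearts was hybridised to Illumina MouseWG-6 v2.0 BeadArrays. The authors normalized the deposited intensities by cubic spline with GenePattern. Normalization was taken to be separate for each comparison, so levels were compared within an age only. The 22 value columns of the non-normalized table carry numbers that match no sample label and were not used. The number of arrays limits the precision.

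Intensities were taken to log2 with no background correction added. Where several probes named a gene, the 1 that was brightest on average over the whole series stood for it. All 22 arrays were fitted in limma 3.58.1 (R 4.3.3, statmod 1.5.0) with 1 mean for each of 10 groups, array weights estimated per comparison (1.76 for E9.5, from 0.539 to 2.07 over all), an intensity trend, 12 residual and 6.63 prior degrees of freedom, and Benjamini-Hochberg adjustment. The methods of the study name an unpaired Student's t-test, which was run as an alternative and is called the methods' t-test. Other alternatives were equal weights, smaller fits, the replicate number as a block, other normalizations and filters, other treatments of probes, and each pool left out in turn. Same-numbered samples at E11.5 deviated together (correlations of 0.423, 0.602 and 0.516), so values with the block are given beside results that use that age. The fit was tested on simulated data. Tables and figures were made with python 3.11.15, numpy 2.4.6, pandas 2.3.3, scipy 1.17.1 and matplotlib 3.10.9.

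The genes named are Thap11 and Hcfc1, the 12 largest increases and 16 largest decreases among genes past the threshold without overlap of the groups, up to 4 genes of lowest p in each list, and every list member past the threshold. Coa3, Trappc3, Crhbp and Slc7a3 fall outside that rule and were chosen after their values were seen. The members and lists were chosen with earlier results of these data known. Promoters run from 250 bases before to 50 after each start (RefSeq, GRCm38.p6) and were searched on both strands with a plain-letter form of the motif that the study describes. Lists of bound genes came from the study's table of E11.5 hearts.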

Additional observations from a re-analysis of the deposited data

Results flagged for a closer look

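Ttc41 and Slc7a3 were the genes whose change differed between E9.5 and E11.5 by a test of the difference itself, the interaction term in limma. For Ttc41 the log2 fold change at E9.5 exceeded that at E11.5 by 1.32 ± 0.21 (SE, adjusted p = 0.0290). At E11.5 its intensities were 63.1, 65.7 and 67.6 in the controls and 73.0, 73.5 and 86.3 in the knockouts, which did not overlap. The adjusted p was 0.125 with equal array weights, and it ran from 0.00568 to 0.203 when each E9.5 pool was left out, with 0.203 without control pool 1, 0.148 without control pool 2 and 0.0769 without knockout pool 2. For Slc7a3 the change at E9.5 minus that at E11.5 was -3.44 ± 0.35 (adjusted p = 8.2e-05). Its E9.5 intensities were 125 and 163 in the controls and 129 and 155 in the knockouts, which overlap, and at E11.5 they were 91.0, 96.9 and 68.7 against 1146, 875 and 751. The adjusted p for Slc7a3 lay between 2.46e-05 and 0.00166 under the 8 alternatives tried for it.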

How the results depend on the processing

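The counts of genes past the threshold depended on how the spread was estimated. None of the 47 called genes followed changed sign under the alternatives run, but many of these could not change it. The knockout and control pools of called genes do not overlap, so leaving out 1 pool keeps the sign. Other weights, the block, the trend and the filters leave the difference between the groups unchanged. Of 47 medians of gene lists, 38 changed sign under at least 1 alternative, so the sign of a list median near 0 carries no direction. Without knockout pool 2 the median of liver and septum transversum markers went from -0.39 to 0.22 and that of epicardial markers from -0.14 to 0.12. Against 22 higher and 38 lower genes, equal array weights gave 1 and 1, the 4 arrays fitted alone 3 and 11, the 10 Nkx2.5 arrays fitted alone 9 and 22, no filter on dim probes 13 and 24, and every probe tested on its own 35 and 47 probes. The methods' t-test gave 303 higher and 281 lower genes unadjusted, and 0 and 0 after Benjamini-Hochberg adjustment. Leaving out each pool gave 1 to 31 higher and 0 to 89 lower genes, with the lowest counts without control pool 2 and the highest without knockout pool 1; without control pool 1 there were 11 and 14, and without knockout pool 2 27 and 14. Of the 38 lower genes, 34 were among the 89, 13 were called without control pool 1 and 13 without knockout pool 2. Quantile normalization kept 21 of the higher and all 38 of the lower genes.

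The labels number the pools alike in both groups, but 2 pairs cannot show whether a number pairs them (correlation of deviations 0.356). At E11.5 the same-numbered samples correlated at 0.423, 0.602 and 0.516, and all samples of unlike number below 0. With the replicate block, 34 genes were higher and 49 lower, 35 differed between E9.5 and E11.5, and of the E9.5 calls 8 higher and 35 lower were called at E11.5.

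Over 1.5-fold, the mean of a gene's probes gave 17 higher genes and every probe tested 49 higher probes; leaving out each pool gave 39 to 65 higher and 51 to 112 lower genes. Over 2-fold, the stricter filter and the mean of probes gave 0 higher genes, every probe gave 13 lower probes, and leaving out each pool gave 3 to 5 higher and 4 to 25 lower genes. The count of genes that differed between the ages was 1 with equal weights, 0 with the stricter filter and 1 to 16 with each pool left out. With equal weights the 1 higher gene kept its direction at E11.5 and was not called there (0), and the 1 lower gene kept its direction and was called (1).

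The share of promoters with the motif was recomputed for the genes of lowest p in settings chosen after seeing the data. For 38 lower genes it was 62.9% to 73.5% in the other limma fits of all 4 pools, 41.9% to 71.9% with each pool left out and 30.0% by the methods' t-test. For 22 higher genes it was 12.5% to 40.0% with each pool left out, lowest without knockout pool 2, and 5.88% by the methods' t-test. The causes of these shifts were not tested. With 2 pools a group, 1 pool decides many calls, and dim genes near the median probe, such as Ttc41, Grk4 and Rpp40, have little signal over background.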
